A study of Mus musculus with 10 samples.

Results

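Genes that mark or maintain blood-forming stem and progenitor cells were followed in grafted mouse bone marrow cells, 1 week after they had been placed in the midbrain and either had or had not fused with a resident cell. The genes were Kit, Flt3, Cd34, Ly6a, Gata2, Tal1, Runx1, Meis1 and Myb, and all 9 were found by gene name among the 55681 probes of the array that are not controls. Together they had 13 probes, and 8 of the 9 entered the tests, among 32212 genes and unnamed transcripts in all. Gata2 was left out because none of the 10 arrays showed its probe well above background. The question was whether graft cells keep the stem and progenitor programme after fusion.

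The donor cells were lineage-negative haematopoietic stem and progenitor cells (HSPCs) from total bone marrow, that is, marrow depleted of mature blood cells with a kit. They were grafted on one side over the substantia nigra pars compacta, 3 days after the last injection of MPTP, a toxin that kills dopaminergic neurons. Cells were dissociated 1 week later and sorted as RFP+YFP+ hybrids or RFP+ unfused cells. Tissue of 2 mice was pooled for each replicate, and each group had 2 replicates.

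R26Y hybrids came from HSPCs carrying Cre and RFP in R26Y recipients, which carry a YFP reporter that Cre switches on. GFAP-Cre hybrids and FoxA2-Cre hybrids came from HSPCs carrying R26Y in recipients with Cre under the name of Gfap, an astrocyte gene, or of FoxA2, a floor plate and midbrain gene (the labels also spell FoxA2-Cre as Fox2A-Cre). In those recipients the reporter is in the graft cell, so YFP marks only hybrids in which Cre from the host cell acted after fusion. In R26Y recipients any host cell type can give a YFP+ hybrid. A graft cell fused with a host cell without Cre would be sorted with the unfused cells of the GFAP-Cre and FoxA2-Cre recipients. The unfused cells of the R26Y and GFAP-Cre recipients were a pool of both models, and the FoxA2-Cre recipients had unfused cells of their own. Every recipient had received MPTP, and no array held donor cells before grafting or host cells alone, so that all levels compare hybrids with unfused graft cells. The labels do not say whether the replicates came from separate grafting sessions, so the p-values measure the spread between these samples, which may be partly technical.

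The R26Y, GFAP-Cre and pooled unfused arrays shared 1 slide and 1 scan, and the FoxA2-Cre arrays another, so slide, scan and recipient set cannot be told apart and levels are compared within a slide only. The share of spots well above background was 64.3% to 86.7% on the 6 arrays of the R26Y and GFAP-Cre slide. It was 19.8% to 49.2% on the 4 FoxA2-Cre arrays, with 34.6% and 19.8% in hybrids against 49.2% and 34.8% in unfused cells. In the FoxA2-Cre set the hybrids also filled 1 row of the slide and the unfused cells the other, so that row and cell type cannot be told apart there. R26Y hybrid replicate 2 stood apart from its slide: its Spearman correlation with the other 5 arrays of the slide was 0.678 to 0.711, against 0.904 to 0.969 among those 5. Its correlation with the FoxA2-Cre arrays was 0.635 to 0.743. The names of the deposited files also give R26Y hybrid replicate 2 and FoxA2-Cre unfused replicate 2 the same sample number, where the sample descriptions give them different ones, and whether a sample was mixed up was not tested. Differences of Myb, Meis1, Runx1 and Flt3 in R26Y hybrids are given with and without R26Y hybrid replicate 2. Medians and the fits of genes of the other lists are given with it only. R26Y hybrid replicate 1 correlated at 0.948 and 0.969 with the pooled unfused arrays.

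Blood formation in the adult starts from a small pool of stem cells in the marrow. Kit, the receptor for stem cell factor, and Flt3, the receptor for Flt3 ligand, carry survival and growth signals into stem and early progenitor cells, while the glycoprotein Cd34 and the surface protein Ly6a (Sca-1) serve to sort such cells in the mouse. Gata2, Tal1 and Runx1 are transcription factors that bind many of the same stem cell enhancers, Meis1 is a homeobox partner of Hox proteins that preserves stem cell quiescence, and Myb drives the expansion of progenitors of several lineages. Levels of most of these genes drop as blood cells mature.

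The array reads each gene through probes of 60 bases. The 2 probes of Cd34, the 3 of Flt3 and the 2 of Runx1 gave different pictures of the same gene, the Gata2 probe gave none, and the Myb probe carried the widest spread, so a 30-base stretch of each is shown to make clear which stretch of transcript each value reads. The capitals mark AATAAA, the core letters of the poly(A) signal, searched on the probe strand alone; where it was not found the first 30 bases are given in lower case.
Cd34, probe A_55_P2009225: taaacaagatatcgggagccaccagagcta
Cd34, probe A_51_P204740: tattctcttctgAATAAAcgtgatgagtga
Flt3, probe A_66_P126155: tttctggggccacacagcgagaccctgtct
Flt3, probe A_55_P2055242: cgtggatcttctctcaagcctcatttcctt
Flt3, probe A_66_P116412: agatgctgtctgccattactccaaagtgac
Runx1, probe A_55_P2183438: caggagggcccttggaggccaccaggaaga
Runx1, probe A_51_P206585: tgtgcatcgtgtcactgtaaatgtaatggt
Gata2, probe A_52_P233441: aactgcataagcttaacccgctgatgagtg
Myb, probe A_55_P2017826: gccttgtagcaaAATAAAgctatcctctta

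The array files place the Cd34 probes at chr1:196785280-196785339 and chr1:196787392-196787451 of mm9 on the plus strand, 2112 bases apart. The Runx1 probes lie at chr16:92605785-92605844 and chr16:92604413-92604472 on the minus strand, 1372 bases apart. The Flt3 probes span a longer stretch of chromosome 5 on the minus strand. A_66_P126155 (chr5:148174133-148174192) is 4363 bases from A_55_P2055242 (chr5:148178496-148178555) and 31557 bases from A_66_P116412 (chr5:148142576-148142635). In the files A_66_P126155 is tied to a cDNA clone and the other two to the Flt3 reference mRNA. Gata2 is read at chr6:88156362-88156421 on the plus strand and Myb at chr10:20844736-20844795 on the minus strand. AATAAA was present in 2 of the 13 member probes, and 10.1% of all 55681 probes hold it. GC content of the member probes ran from 35.0% to 58.3% with a median of 40.0%, against a median of 43.3% over all probes. Whether a probe lies in an exon, an intron or a UTR was not analysed here.

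Levels are given as log2 scaled signal, the log2 processed signal of a spot relative to the 75th percentile of its array, taken over spots that every array measured well above background. A level of one probe says nothing about the level of another. Each gene stands for the probe with the highest mean level among those well above background on at least 2 arrays. On the R26Y and GFAP-Cre slide 7 or 8 of the 8 tested genes were well above background on every array. On the FoxA2-Cre slide 3 of 8 were well above background on each hybrid array, against 5 and 4 on the unfused arrays.

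**Figure D1:**
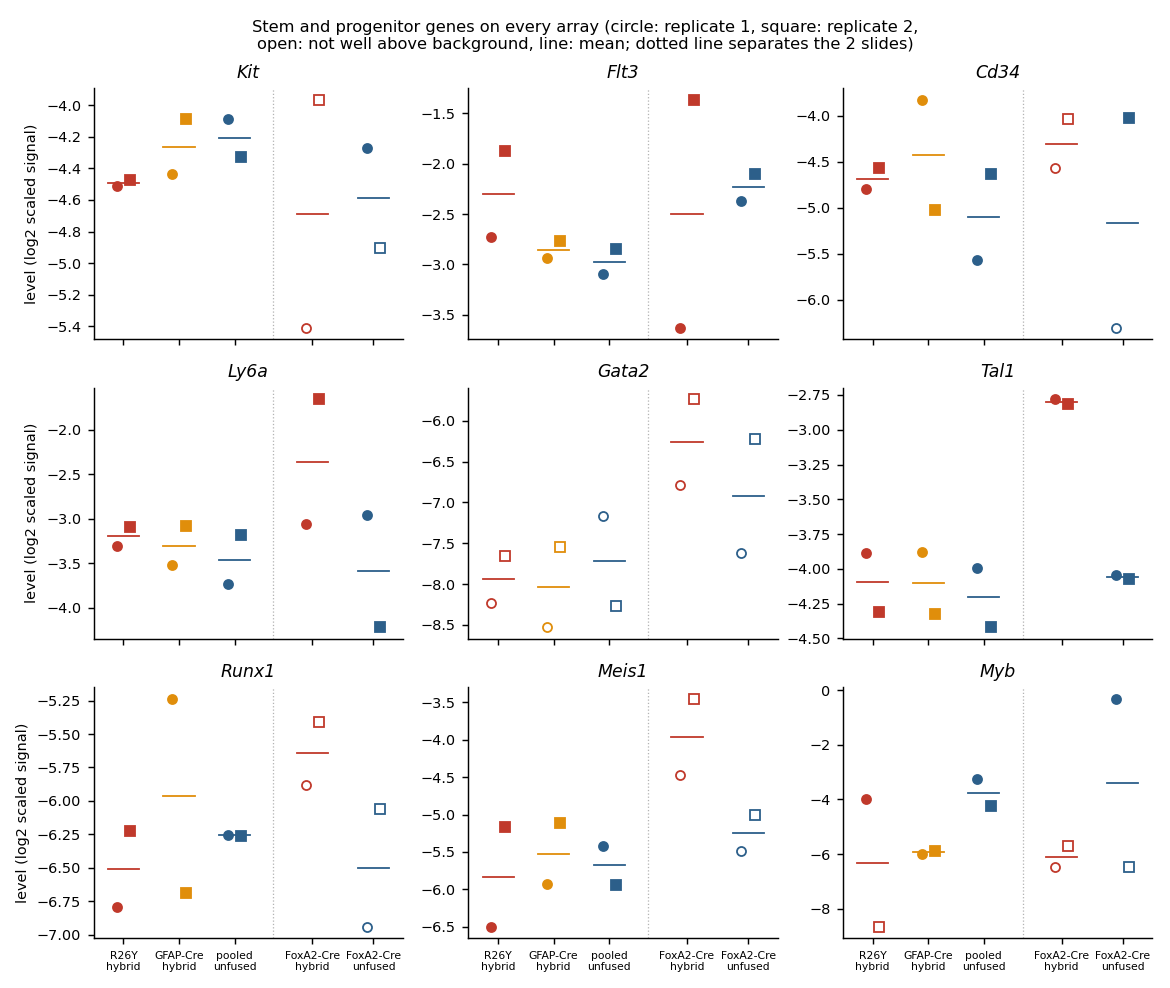
Level of each of the 9 genes (log2 scaled signal, y axis) on every array, by group (x axis), with hybrids left of their unfused cells. Filled points were well above background, open points were not, and lines are means of 2 replicates. Tal1 of the FoxA2-Cre hybrids, at -2.78 and -2.82, lies apart from -4.04 and -4.07 in FoxA2-Cre unfused cells, while Myb spreads from -8.66 to -3.27 on the R26Y and GFAP-Cre slide and from -6.46 to -0.32 on the FoxA2-Cre slide.

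Of the receptors, Kit was the steadiest gene on the R26Y and GFAP-Cre slide. Its level was -4.51 and -4.47 in R26Y hybrids and -4.43 and -4.09 in GFAP-Cre hybrids, against -4.09 and -4.33 in pooled unfused cells. The whole slide thus spanned 0.43, and both R26Y hybrids lay below both unfused arrays. On the other slide Kit was at -5.41 and -3.97 in FoxA2-Cre hybrids and at -4.27 and -4.91 in FoxA2-Cre unfused cells. Only FoxA2-Cre unfused replicate 1 was well above background there, and the groups overlapped.

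Flt3, read by A_66_P126155, was well above background on all 10 arrays. The probe is tied to a cDNA clone, and whether it reads the Flt3 mRNA was not tested, so its values are those of this probe. It was at -2.73 and -1.88 in R26Y hybrids and at -2.94 and -2.77 in GFAP-Cre hybrids, against -3.10 and -2.85 in pooled unfused cells. R26Y hybrid replicate 2, the array that stands apart, was the highest of the slide, and replicate 1 alone was still above both unfused arrays. FoxA2-Cre hybrids had -3.63 and -1.37, on either side of the -2.37 and -2.10 of FoxA2-Cre unfused cells.

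The other Flt3 probes followed it in part. In R26Y hybrids the log2 difference was 0.73 for A_66_P116412, beside 0.67 for A_66_P126155, but -0.47 for A_55_P2055242. In GFAP-Cre hybrids it was -0.23 for A_66_P116412 and 0.25 for A_55_P2055242, beside 0.12 for A_66_P126155. A_55_P2055242 was at -3.60 and -4.99 in R26Y hybrids and -3.07 and -4.07 in GFAP-Cre hybrids, against -3.99 and -3.66 in pooled unfused cells. On the second slide it was at -6.28 and -5.81 in FoxA2-Cre hybrids, both not well above background, against -5.86 and -3.77 in unfused cells. A_66_P116412 was at -5.07 and -4.10 in R26Y hybrids and -5.52 and -5.58 in GFAP-Cre hybrids, against -5.53 and -5.11 in pooled unfused cells. In FoxA2-Cre hybrids it was at -4.34 and -4.47, against -4.57 and -4.49 in FoxA2-Cre unfused cells, with only replicate 1 of each group well above background. Over all hybrids, the log2 difference to unfused cells was 0.11 ± 0.48 for A_66_P126155, -0.59 ± 0.55 for A_55_P2055242 and 0.20 ± 0.38 for A_66_P116412 (SE from limma over 50005 probes, adjusted p = 1.00 for each). The sign of an Flt3 difference therefore depended on the probe, and each difference was within about its error.

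Cd34 varied as much within groups as between them. Probe A_55_P2009225 was at -4.80 and -4.57 in R26Y hybrids and -3.83 and -5.03 in GFAP-Cre hybrids, against -5.57 and -4.63 in pooled unfused cells. In FoxA2-Cre hybrids it was at -4.57 and -4.04, both not well above background, against -6.31 and -4.03 in FoxA2-Cre unfused cells, of which replicate 2 alone was well above background. Hybrids and unfused cells overlapped in every recipient. The second probe, A_51_P204740, was well above background on the R26Y and GFAP-Cre slide only, where it ran from -6.35 to -4.08, with R26Y hybrid replicate 1 lowest and GFAP-Cre hybrid replicate 1 highest.

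Ly6a was detected on all 10 arrays. Its level was -3.31 and -3.09 in R26Y hybrids and -3.53 and -3.08 in GFAP-Cre hybrids, against -3.74 and -3.19 in pooled unfused cells, a span of 0.66 over the slide. FoxA2-Cre hybrids had -3.06 and -1.66, against -2.96 and -4.22 in FoxA2-Cre unfused cells. Hybrid replicate 2 was the highest and unfused replicate 2 the lowest, and the remaining arrays of each group lay side by side.

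**Figure D2:**
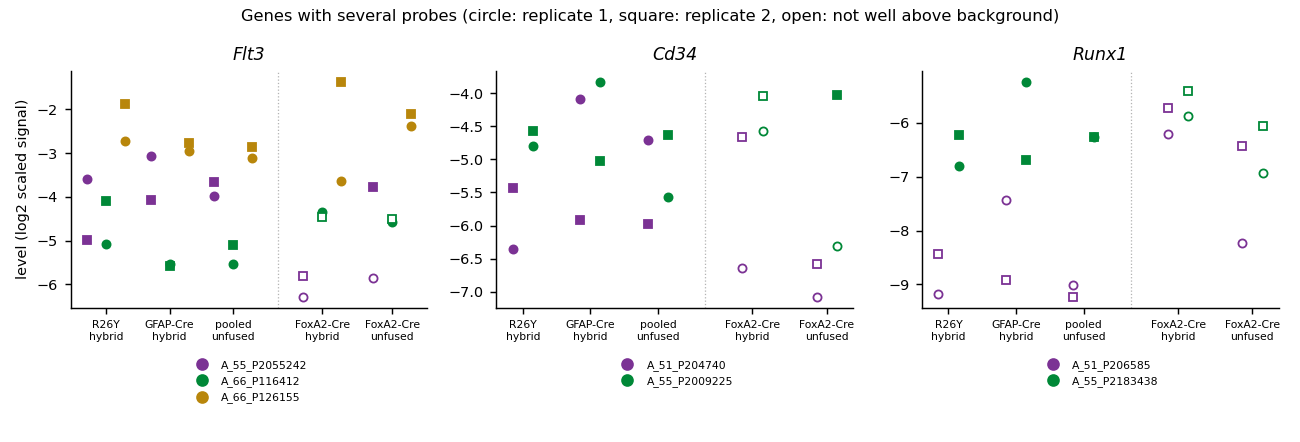
Level (log2 scaled signal, y axis) of every probe of Flt3, Cd34 and Runx1 on every array, by group (x axis); colours are probes, circles replicate 1, squares replicate 2, and open points were not well above background. The 3 Flt3 probes do not move together across arrays, and Runx1 probe A_51_P206585 is open on all 10 arrays.

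Among the transcription factors, Tal1 was well above background on every array and had the smallest fitted standard error of the 8 tested genes. It was at -3.89 and -4.31 in R26Y hybrids and -3.88 and -4.32 in GFAP-Cre hybrids, against -3.99 and -4.42 in pooled unfused cells, and the 3 groups overlapped. In FoxA2-Cre hybrids it was at -2.78 and -2.82, against -4.04 and -4.07 in FoxA2-Cre unfused cells. On these scaled levels the 2 groups did not overlap.

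Runx1, read by A_55_P2183438, was well above background only on the R26Y and GFAP-Cre slide. There it was at -6.79 and -6.23 in R26Y hybrids and -5.24 and -6.69 in GFAP-Cre hybrids, against -6.26 on both pooled unfused arrays. GFAP-Cre hybrid replicate 1 was the highest and the groups overlapped. On the FoxA2-Cre slide the probe read -5.88 and -5.41 in hybrids, against -6.94 and -6.06 in unfused cells, none of them well above background, so no fold is given.

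Meis1 had the same pattern of detection. It was at -6.50 and -5.17 in R26Y hybrids and -5.93 and -5.11 in GFAP-Cre hybrids, against -5.42 and -5.94 in pooled unfused cells, with the unfused arrays inside the range of the hybrids. The FoxA2-Cre hybrids read -4.47 and -3.45, against -5.49 and -5.01 in FoxA2-Cre unfused cells, again not well above background in either group. The Gata2 probe read -8.53 to -7.55 in the 4 R26Y and GFAP-Cre hybrids and -8.27 and -7.16 in pooled unfused cells, and -6.79 and -5.74 in FoxA2-Cre hybrids against -7.62 and -6.23 in FoxA2-Cre unfused cells, not well above background throughout.

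Myb was the most variable of the 9 genes. It was at -3.98 and -8.66 in R26Y hybrids and at -6.00 and -5.88 in GFAP-Cre hybrids, against -3.27 and -4.25 in pooled unfused cells. GFAP-Cre hybrids lay below both unfused arrays, whereas R26Y hybrid replicate 1 fell between them and replicate 2 was not well above background. FoxA2-Cre hybrids were at -6.46 and -5.72, both not well above background, against -0.32 and -6.46 in FoxA2-Cre unfused cells. The first unfused replicate was therefore the highest of its slide, and the second, also not well above background, was at the level of the hybrids.

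Within a slide, the 9 genes gave 27 pairs of neighbouring groups when the groups were ordered by their mean level. The count was not made over all genes, whose median difference in FoxA2-Cre recipients was 0.36. Each SD rests on 2 arrays, and Gata2 was not well above background in any group. In 22 of the pairs the gap between neighbours was within the larger SD of the pair. The 5 wider gaps were those of Ly6a, Tal1, Meis1 and Runx1 between FoxA2-Cre hybrids and FoxA2-Cre unfused cells, the last 2 not well above background, and that of Myb between GFAP-Cre hybrids and pooled unfused cells, with the hybrids lower.

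The differences were fitted with limma on the log2 levels of all 32212 genes and transcripts, with Benjamini-Hochberg adjustment over all of them and a threshold of 0.05. Over all 6 hybrid and 4 unfused arrays, with the recipient set as a term, no member passed: 0 of 8 were called, where 0% of all genes were called and 3.13% had an unadjusted p under 0.05, none of them a member. Of the 8 differences 6 were above 0, with a median of 0.47, beside a median of 0.03 over all genes, of which 47.8% lay below 0. In bulk samples such as these, fewer cells of a type and less RNA per cell cannot be told apart.

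Myb had the largest of these differences, -2.51 ± 1.20 (SE; 95% interval -5.18 to 0.17; limma adjusted p = 0.999), and 1.10% of all genes tested lay lower. It was -2.06 without R26Y hybrid replicate 2 and -1.45 without FoxA2-Cre unfused replicate 1. Tal1 was at 0.60 ± 0.34 (interval -0.15 to 1.35; limma adjusted p = 0.999). Cd34 was at 0.68 ± 0.50, Ly6a at 0.65 ± 0.43, Meis1 at 0.55 ± 0.45 and Runx1 at 0.38 ± 0.42. Of the 4 FoxA2-Cre arrays that enter these differences, Meis1 and Runx1 were well above background on none, and Kit, Cd34 and Myb on 1 each. Nearest to 0 were Kit at -0.14 ± 0.36 (interval -0.94 to 0.66) and Flt3, by probe A_66_P126155, at 0.11 ± 0.47 (interval -0.95 to 1.17). The other Flt3 probes were at -0.59 ± 0.55 (A_55_P2055242) and 0.20 ± 0.38 (A_66_P116412). The intervals of Kit and A_66_P126155 include 0 but are wide. The data therefore show neither a difference nor the same level of either receptor in hybrids and unfused cells.

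**Figure D3:**
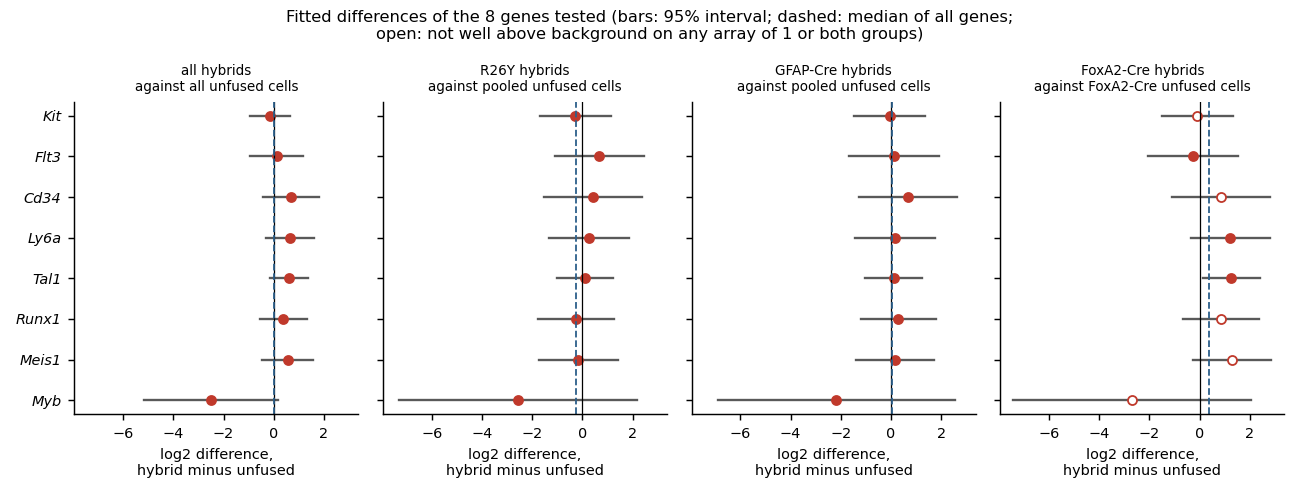
Fitted log2 difference, hybrid minus unfused (x axis), of the 8 genes tested (y axis) in 4 comparisons, with 95% intervals from limma. The dashed line is the median of all genes, and open points mark genes not well above background on any array of 1 or both groups. Only the interval of Tal1 in FoxA2-Cre recipients, 0.13 to 2.38, leaves out 0, and its adjusted p is 0.531.

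R26Y hybrids and GFAP-Cre hybrids were set against the same 2 pooled unfused arrays, so these comparisons are not independent. In R26Y hybrids 0 of 8 members were called (0% of all genes, and 1.39% at an unadjusted p under 0.05, none of them a member). Of the 8, 4 lay above 0 with a median of -0.02, beside -0.26 over all genes, of which 64.2% lay below 0. Kit, at -0.28 ± 0.61, was lower in both hybrids than in both unfused arrays (19.6% of all genes were), and Flt3, at 0.67 ± 0.77, higher (10.6% of all genes were). Myb was at -2.55 ± 2.04, and at -0.21 without R26Y hybrid replicate 2. Without that array Meis1 was at -0.82 in place of -0.15, Runx1 at -0.54 in place of -0.25 and Flt3 at 0.25.

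In GFAP-Cre hybrids, where Cre came from the host cell, 0 of 8 members were called, as were 0% of all genes. At an unadjusted p under 0.05, 1.62% of all genes passed, none of them a member. Here 6 of 8 differences were above 0, with a median of 0.14, beside 0.03 over all genes, of which 46.6% lay below 0. Myb was the one member whose arrays did not overlap, at -2.18 ± 2.04 (interval -6.91 to 2.56; adjusted p = 1.00), and 14.4% of all genes were lower in this way, while 0 members and 19.9% of all genes had both hybrids higher. Cd34 was at 0.67 ± 0.84, Runx1 at 0.29 ± 0.65, Ly6a and Meis1 at 0.16 ± 0.68, Flt3 at 0.12 ± 0.77, Tal1 at 0.10 ± 0.49 and Kit at -0.05 ± 0.61. No member had all 4 hybrids of the slide on one side of both unfused arrays; of all genes, 4.43% had them higher and 5.11% lower.

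In FoxA2-Cre recipients 0 of 8 members were called, where 0.531% of all genes were, 17 of them higher and 154 lower in hybrids. Of the 8 differences 5 were above 0, with a median of 0.86, beside 0.36 over all genes, of which 36.5% lay below 0. Of the 8 members, 5 were well above background on at most 1 of the 4 arrays. At an unadjusted p under 0.05, 8.65% of all genes passed, 4.81% with hybrids higher, and of the members Tal1 alone did. Tal1 was 1.26 ± 0.49 higher on the log2 scale in FoxA2-Cre hybrids (interval 0.13 to 2.38; limma adjusted p = 0.531) and did not pass the adjusted threshold. Leaving out each of the 4 arrays gave 1.24 to 1.28, while the authors' deposited values gave 0.31 ± 0.23. Tal1 lay 0.89 above the median of all genes in this comparison. Before scaling, its processed signal was 58.0 and 25.0 in the hybrids, against 45.8 and 23.0 in the unfused cells, and the groups overlapped. The 75th percentiles used for scaling were 8.64 and 7.46 (log2) in the hybrids, against 9.56 and 8.59 in the unfused cells. How much of the Tal1 difference comes from the scaling was not tested.

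Tal1, Meis1 and Runx1 were the 3 of 8 members with both FoxA2-Cre hybrids above both unfused arrays, as were 26.5% of all genes, and the last 2 were not well above background in either group. No member had both hybrids below both unfused arrays, as 10.6% of all genes did. Ly6a was at 1.23 ± 0.68 (interval -0.36 to 2.81; adjusted p = 0.637) and Flt3 at -0.26 ± 0.77 (adjusted p = 0.910). Kit and Cd34 were not well above background in either hybrid and on only 1 unfused array each, and the bound from background gave no fold.

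Myb was not well above background in either FoxA2-Cre hybrid and was well above it on 1 of 2 unfused arrays. The fitted difference was -2.70 ± 2.04 (limma adjusted p = 0.704). It rests on FoxA2-Cre unfused replicate 1, since without that array the difference was 0.37, and no fold is given. Without unfused replicate 2 it was -5.77.

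The hybrid minus unfused difference in FoxA2-Cre recipients, less that in R26Y and GFAP-Cre recipients, was tested in the fit of 5 group means. No member passed, 0 of 8, where 0.0962% of all genes did, and 5.62% had an unadjusted p under 0.05, none of them a member. Tal1 was at 1.15 ± 0.64 (adjusted p = 0.835) and Ly6a at 1.02 ± 0.90, beside a median of 0.40 over all genes. Myb, well above background on 1 of the 4 FoxA2-Cre arrays, was at -0.33 ± 2.70 (interval -6.60 to 5.93). Meis1 and Runx1 are given no value here, since no FoxA2-Cre array measured them well above background. The separation of Tal1 in FoxA2-Cre recipients was thus not shown to differ from the other recipients.

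Of 13 other surface and niche receptors, all tested, 0 were called in any of the 5 comparisons. Their median was 0.47 over all hybrids, beside 0.03 over all genes, and 0.26 in R26Y hybrids, beside -0.26. It was -0.12 in GFAP-Cre hybrids, beside 0.03 over all genes, and 0.43 in FoxA2-Cre hybrids, beside 0.36. Tek, the angiopoietin receptor of stem cells and endothelium, was at -3.45 and -5.45 in FoxA2-Cre hybrids, against -5.91 and -6.43 in FoxA2-Cre unfused cells. Only hybrid replicate 1 was well above background, so a difference (limma adjusted p = 0.566) would rest on that array and no fold is given. Procr, the protein C receptor that marks quiescent stem cells, read 4.77 in FoxA2-Cre hybrid replicate 1 and -5.26 in replicate 2, against -7.53 and -4.73 in unfused cells. Hybrid replicate 1 was the one array of the slide well above background, so a difference (limma adjusted p = 0.607) would rest on that array and no fold is given. Il7r, the interleukin receptor of lymphoid progenitors, was at -8.61 and -9.68 in GFAP-Cre hybrids, not well above background, against -6.12 and -6.90 in pooled unfused cells, at least 1.41-fold lower with background as the bound (limma adjusted p = 1.00).

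Of 26 other stem and progenitor transcription factors, 22 were tested and 0 were called in any comparison, while Erg, Fli1, Hhex and Mycn were not well above background on enough arrays. Over all hybrids 12 of the 22 were above 0, with a median of 0.12, where 47.8% of all genes lay below 0. In R26Y hybrids 18 of 22 were below 0, with a median of -0.22 that lay beside -0.26 over all genes, of which 64.2% lay below 0. In FoxA2-Cre recipients 13 of 22 were above 0 and 9 below, with a median of 0.55, where all genes had a median of 0.36 and 36.5% of them lay below 0. There Bmi1, a Polycomb protein needed for stem cell renewal, was at -1.83 and -2.16 in hybrids, against -4.39 and -2.51 in unfused cells (1.45 ± 0.68, adjusted p = 0.597). Hlf, a stem cell bZIP factor, was at -3.31 and -3.06 in hybrids, against -5.18 and -3.95 in unfused cells (1.38 ± 0.59, adjusted p = 0.577). Both genes were detected on all 10 arrays and neither passed the test.

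Lmo2, the bridging partner of Tal1 and Gata2 complexes, was high on a single array. It was at -6.70 and -5.41 in FoxA2-Cre hybrids, against 1.98 and -5.87 in FoxA2-Cre unfused cells (limma adjusted p = 0.613). The array with 1.98 is FoxA2-Cre unfused replicate 1, the one on which Myb was also high, and it alone was well above background there. On the other slide Lmo2 ran from -5.60 to -4.59, with no such array.

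Of 9 ligands and partners of the members, 0 were called in any comparison. Kitl, which encodes stem cell factor, the ligand of Kit, ranked first among the 9 over all hybrids (-1.06 ± 0.42, limma adjusted p = 0.999). It was at -2.76 and -4.57 in R26Y hybrids and -3.54 and -2.92 in GFAP-Cre hybrids, against -2.78 and -2.57 in pooled unfused cells. In FoxA2-Cre hybrids it was at -5.68 and -5.36, not well above background, against -4.16 and -3.99 in FoxA2-Cre unfused cells. Cbfb, the binding partner of Runx1, was at -6.79 and -7.66 in R26Y hybrids, replicate 2 not well above background, against -4.84 and -5.41 in pooled unfused cells (-2.10 ± 0.84, adjusted p = 1.00). Sh2b3, an adaptor that dampens Kit signalling, was not well above background on any FoxA2-Cre array.

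Markers of other cells were read on the same arrays. The neutrophil and myeloid progenitor markers had a summed scaled signal of 2.70 and 0.97 in R26Y hybrids, the lower being replicate 2, and of 3.03 and 2.24 in GFAP-Cre hybrids, against 6.44 and 4.13 in pooled unfused cells. The sum was 1.43 and 1.31 in FoxA2-Cre hybrids, against 45.3 and 29.3 in FoxA2-Cre unfused cells. Of these 11 markers 9 to 11 were well above background in the R26Y and GFAP-Cre hybrids and 11 and 10 in pooled unfused cells, but 3 and 2 in FoxA2-Cre hybrids, against 9 and 6 in FoxA2-Cre unfused cells. Of the 11, 2 were called, both lower in FoxA2-Cre hybrids, where neither was well above background. Mpo, the myeloperoxidase of granule-forming progenitors, was at least 129-fold lower with background as the bound (limma adjusted p = 0.0258), and S100a9, a calcium-binding protein of neutrophils, at least 210.3-fold lower (limma adjusted p = 0.0470). Over the alternatives the adjusted p ran from 0.0162 to 0.132 for Mpo and from 0.0223 to 0.151 for S100a9, with both calls lost when the FoxA2-Cre arrays were fitted alone, when probes of a gene were averaged, and without FoxA2-Cre hybrid replicate 1 or unfused replicate 1. The fold and the levels of Mpo are those of its probe with the highest mean. As the mean of its probes, its difference was -3.06 in FoxA2-Cre hybrids, in place of -7.89. It was -1.85 in R26Y hybrids and -1.62 in GFAP-Cre hybrids, in place of -4.31 and -3.86. The Mpo probe was at -5.85, -7.35, -6.03 and -6.27 in the R26Y and GFAP-Cre hybrids, against -0.70 and -3.89 in pooled unfused cells. It was at -6.77 and -5.66 in FoxA2-Cre hybrids, against 1.79 and 1.55 in FoxA2-Cre unfused cells. The levels of this probe therefore separated hybrids from unfused cells on both slides, which no member did. Of all genes, 0.47% were lower and 1.08% higher in hybrids on both. The part of the neutrophil and myeloid progenitor markers in the Myb values was not tested.

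The 7 microglia markers had a summed signal of 96.2 and 186.8 in FoxA2-Cre hybrids, against 26.1 and 25.1 in FoxA2-Cre unfused cells, with 0 of 7 called. Of the 7, 6 and 3 were well above background in the FoxA2-Cre hybrids, the fewer on the array with the larger sum, against 5 and 4 in the unfused cells. On the other slide the sum was 6.53 and 34.0 in R26Y hybrids, the higher being replicate 2, and 7.75 and 11.1 in GFAP-Cre hybrids, against 7.16 and 10.9 in pooled unfused cells. Cx3cr1, the fractalkine receptor of microglia and monocytes, was at 4.64 and 6.30 in FoxA2-Cre hybrids, against 3.23 and 2.42 in FoxA2-Cre unfused cells. The pan-leukocyte gene Ptprc (CD45) was well above background on all 10 arrays. It was at -3.35 to -2.68 on the R26Y and GFAP-Cre slide and at -3.26 to -2.73 on the other. Ptprc is from the list of 8 pan-haematopoietic markers, of which 7 lay below 0 over all hybrids. Their median was -0.60, beside 0.03 over all genes, of which 47.8% lay below 0. In FoxA2-Cre recipients their median was -0.62, beside 0.36 over all genes. Of the 8, 5 and 2 were well above background in FoxA2-Cre hybrids, against 6 and 4 in FoxA2-Cre unfused cells. Their summed signal was 0.57 and 0.62 in FoxA2-Cre hybrids, against 5.54 and 6.21 in FoxA2-Cre unfused cells. It was 1.405 and 0.48 in R26Y hybrids and 1.76 and 1.27 in GFAP-Cre hybrids, against 1.65 and 1.18 in pooled unfused cells. The part of these markers in the Tal1 values was not tested. In the lists of mast cell, monocyte, erythroid, megakaryocyte, B cell, T and NK cell, endothelial, astrocyte, neuron, dopaminergic neuron, oligodendrocyte and pan-haematopoietic markers, 0 genes were called in any comparison.

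**Figure D4:**
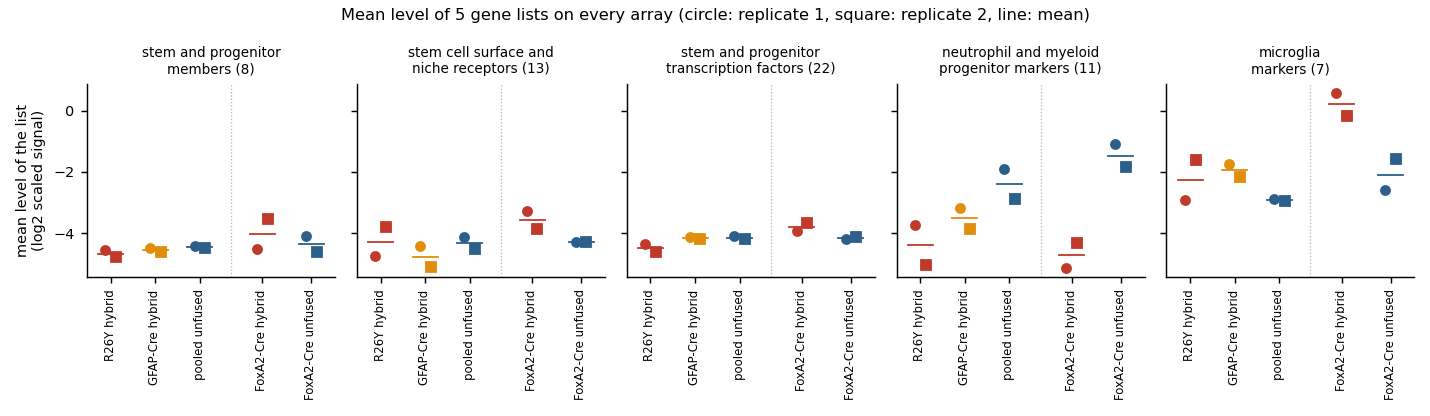
Mean level (log2 scaled signal, y axis) of the 8 members tested and of 4 other lists on every array, by group (x axis); circles are replicate 1, squares replicate 2 and lines means. On the R26Y and GFAP-Cre slide the members' mean is -4.80 to -4.47 in hybrids and -4.48 and -4.43 in unfused cells, and that of neutrophil and myeloid progenitor markers is -5.04 to -3.18 in hybrids and -1.89 and -2.88 in unfused cells. On the FoxA2-Cre slide these markers are at -5.14 and -4.33 in hybrids and -1.10 and -1.83 in unfused cells.

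Across arrays the members did not form a single block. On values centred within each slide, the 28 pairs of members had a median Pearson correlation of 0.27 over the 10 arrays, and 18 pairs were above 0. Cd34 and Runx1 were the most alike, at 0.79, and Cd34 and Myb the least, at -0.77. On the FoxA2-Cre slide Runx1 was well above background on no array, and Cd34 and Myb on 1 unfused array each. How far these correlations rest on values not well above background was not tested. These are descriptions over arrays that share slides and differ in depth.

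The genes whose levels were most like those of each member, by the same measure among 20060 genes with a symbol, came from many families. For Tal1 they were Nptx2 (0.98) and Rbm46os (0.97), and for Myb Impdh2 (0.995) and Plac8l1 (0.98). For Kit they were Cyth2 (0.96) and Gm5105 (0.96), for Flt3 Rbm39 (0.98) and Tpp2 (0.97), and for Cd34 Tfap4 (0.96) and Hhipl2 (0.95). For Ly6a they were BC065397 (0.97) and Cdhr3 (0.97), for Runx1 Kdelr3 (0.96) and Olfr92 (0.94), and among those for Meis1 was Adgrb2 (0.95). Myb had 193 genes with a correlation over 0.9, more than any other member, and the other 7 had 20 to 52. On the FoxA2-Cre slide Myb was high on unfused replicate 1 alone. How far its correlations rest on that array was not tested. Meis1 and Runx1 were not well above background on any array of that slide.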

How the data were processed

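Sorted hybrids and unfused graft cells were measured on 10 one-colour Agilent mouse 8x60K arrays, in 5 groups of 2. Per the labels' protocols, RNA was amplified with TransPlex whole transcriptome amplification and 500 ng of cDNA labelled with Cy3, which can raise the spread of rare transcripts. Per the file headers, Agilent Feature Extraction 10.7.3.1 made the deposited intensity values (processed signal) and the marks on spots, with probe positions of mm9. The authors' deposited log2 values served as an alternative; their scaling is not given in the sources used here, and their median was 7.38 on one slide and 6.26 on the other.

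The members and lists were chosen with earlier results of these data known. Control and non-uniform spots were left out, spots of a probe averaged, and log2 signals scaled to each array's 75th percentile over the 9510 spots that all arrays measured well above background. No spot was saturated. Probes well above background on at least 2 arrays were kept, and a gene was its probe with the highest mean. Of 55681 probes, 27428 were named through RefSeq and 28253 kept the file's name. Named were all members, and of each other list up to 4 genes with the smallest p per comparison, a part of which is given here, and any that passed; for likeness, the 2 highest correlations, 1 of which is not reported here. limma 3.58.1 in R 4.3.3 tested 5 comparisons at an adjusted p of 0.05. The residual degrees of freedom were 7 for all hybrids and 5 for the fit of 5 groups. The fit was also run on simulated data with the same spread of a gene on every array, which does not test arrays of unequal quality. Precision is limited by 2 arrays a group. Background correction, scaling, filters, probe choice, blocks and leaving out each array were the alternatives.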

Additional observations from a re-analysis of the deposited data

How the results depend on the processing

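No member passed the test in any comparison under any alternative run, and of 360 member differences 333 kept their direction and 27 turned; the cause of a turn was not tested. Over all hybrids, Kit was 0.23 with normexp and Flt3 -0.09 as the mean of its probes. In R26Y hybrids Kit was 0.05 with the 75th percentile over all probes, 0.15 with quantile normalization and 0.10 in the authors' values. In the same hybrids Meis1 was 0.10 with normexp and 0.18, 0.41 and 0.19 with those settings in that order, Runx1 was 0.13 with normexp and 0.08, 0.27 and 0.11 with them, and Cd34 was -0.07 as the mean of its probes. In GFAP-Cre hybrids Flt3 was -0.03 in the authors' values. In FoxA2-Cre hybrids Kit was 0.62 with normexp, Flt3 was 0.08 with normexp, 0.04 with quantile normalization and 0.21 in the authors' values, and in those values Cd34 was -0.01 and Runx1 -0.09. For the difference between recipient sets, Kit was -0.04 with the percentile over all probes and -0.17 with quantile normalization, Cd34 was 0.00 (below 0 before rounding) with quantile normalization and -0.54 in the authors' values, and in these Runx1 was -0.20 and Tal1 -0.02. The median of all genes moved with the scaling, in R26Y hybrids between -0.30 and 0.08 and in FoxA2-Cre hybrids between 0.03 and 0.71.

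Leaving out each array in turn called 0 of 8 members in every comparison and turned 37 of 256 differences. Over all hybrids Kit ran from -0.39 to 0.09 and Flt3 from -0.20 to 0.55. In R26Y hybrids Cd34 ran from -0.05 to 0.89, Ly6a from -0.01 to 0.54, Meis1 from -0.82 to 0.51, Runx1 from -0.54 to 0.03 and Tal1 from -0.11 to 0.32. In GFAP-Cre hybrids Kit ran from -0.23 to 0.12, Ly6a from -0.12 to 0.43, Meis1 from -0.25 to 0.57, Flt3 from 0.00 to 0.24, Runx1 from -0.43 to 1.02 and Tal1 from -0.12 to 0.32. In FoxA2-Cre hybrids Kit ran from -0.82 to 0.62, Cd34 from -0.27 to 2.00, Flt3 from -1.39 to 0.87 and Myb from -5.77 to 0.37. For the difference between recipient sets Kit ran from -0.65 to 0.79, Cd34 from -0.82 to 1.46, Flt3 from -1.79 to 0.47 and Myb from -3.40 to 2.74. A group left with 1 array was assumed to vary like the others.

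Counts over all genes depended on single arrays. The 171 genes called in FoxA2-Cre recipients became 331 and 435 without hybrid replicate 1 or 2, 353 and 559 without unfused replicate 1 or 2, 112 with normexp, 106 with a replicate block and 0 with the FoxA2-Cre arrays alone (1412 at an unadjusted p under 0.05). In R26Y hybrids 0 became 2316 without R26Y hybrid replicate 1. The 31 genes of the difference between recipient sets became 9 with quantile normalization, 56 in the authors' values, 0 with a replicate block (1670 at an unadjusted p under 0.05), 0 without any 1 of the pooled unfused or GFAP-Cre hybrid arrays (805 to 1590 unadjusted), and 81 to 156 without any 1 of the other arrays. Same-numbered replicates did not deviate together (correlations of deviations -0.07 to 0.07 over pairs of groups), so the numbers were not taken as pairs. With the replicate block 0 of 8 members were called.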
